A study of Mus musculus with 6 samples.

Results

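Acta2, Tagln, Myh11, Cnn1, Des, Pdgfra, Pdgfrb, Pdgfb and Rgs5 are genes by which smooth muscle cells, pericytes and myofibroblasts are recognised. They were examined in the kidneys of lupus-prone MRL/lpr (LPR) mice and of their control strain, MRL/MpJ (MRL). The genes were fixed by name, with earlier results of these data known. Every probe that carried one of the 9 names in the array annotation and was not a control was taken. This gave 20 of the 56605 probes and 9 of the 36870 gene names on the array. The LPR mice carried the lpr mutation of Fas in both copies on the MRL/MpJ background, and the MRL mice were the same strain without it. All 6 mice, 3 per group, were females of 6 months kept under specific pathogen-free conditions. Each whole kidney gave 1 array, so the groups were compared at 1 age and over all cell types of the organ, and fewer cells of a type and less RNA per cell cannot be told apart.

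Smooth muscle cells of the arterial wall hold a contractile apparatus of smooth muscle actin (Acta2) and smooth muscle myosin (Myh11), together with the actin-binding proteins transgelin (Tagln) and calponin (Cnn1). Desmin (Des) is the intermediate filament of muscle cells and is also found in pericytes and mesangial cells. Pericytes and mesangial cells carry the receptor PDGFRB and are held at the vessel by PDGF-B, the ligand that endothelial cells and platelets release, whereas PDGFRA marks interstitial fibroblasts. Myofibroblasts, the matrix-producing cells of the fibrotic kidney, express Acta2 with collagens and less of the late contractile genes. Rgs5, a regulator of G-protein signalling, is a gene of pericytes.

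In LPR mice the transcripts of Acta2, Tagln and Pdgfb were higher than in MRL mice, by 1.52-fold, 1.63-fold and 1.71-fold. On their brightest probes Cnn1, Des, Pdgfra and Pdgfrb lay higher in each LPR mouse than in any MRL mouse without passing the threshold. Such separation was seen for 11.7% of all tested genes, and a second probe of Des went the other way (-0.25). Myh11 and Rgs5 overlapped between the groups. The rise of Pdgfb on its brightest probe was called under each of 19 alternative settings, whereas its second probe lost the call under 10 of 19. The rises of Acta2 and Tagln, on their brightest probes, depended on which arrays were used. The other tested Acta2 probes kept the call without each mouse in turn and lost it with the slide column. None of the 9 genes was lower in LPR mice by limma (0 genes at an adjusted p, beside 5.47% of all tested genes, and 0 at an unadjusted p under 0.05, beside 18.9%). The methods' t-test after adjustment also called 0 of them lower, beside 3.12% of all tested genes.

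Values are log2 signals after subtraction of each array's 75th percentile. They are relative to a signal that differs from probe to probe, so the levels of different probes are not compared. A change is LPR minus MRL from limma, with a threshold of 0.05 for the adjusted p over 39924 tested probes, and the brightest tested probe stands for a gene. By this measure 3 of 9 genes were higher, beside 7.12% of all 25805 tested genes, and 6 of 19 tested probes were higher, beside 6.53% of all tested probes. At an unadjusted p under 0.05, 6 of the 9 genes were higher, beside 10.5% of all tested genes, and by the methods' t-test after adjustment 3 were, beside 4.88%. No probe was lower (0 of 19), beside 6.17% of all tested probes. In 7 of the 9 genes the LPR mice all lay above the MRL mice, which was so for 11.7% of all tested genes. The LPR mice all lay below the MRL mice for 0 of the 9 genes, beside 25.6% of all tested genes. The median change of the 9 genes was 0.46, and that of all tested genes was -0.12. As the 9 genes were chosen with earlier results of these data known, these shares are a description and not a test.

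The arrays lay on 1 slide and were read in 1 scan, and no spot was saturated. Slide column 1 held the 3 MRL mice and LPR 1, and column 2 held LPR 2 and LPR 3, so column and group overlapped in part. Values within column 1 therefore compare LPR 1 alone with the 3 MRL mice, and the spread of LPR 1 is assumed to be that of the others. A block for the slide column gives the same changes as column 1 alone, since column 2 held no MRL mouse. The share of spots detected above background ran from 69.6% in MRL 1 to 73.53% in LPR 1, the only LPR mouse in column 1. LPR 1 also had the highest 75th percentile of signal, 941.7, and LPR 3 the next, 758.6. Pairs of arrays correlated at 0.990 to 0.993 in the same group and at 0.961 to 0.971 across the groups. Proximal tubule and distal nephron markers, 4 of 4 in each list, were above background on all 6 arrays. Fas gave no clear check of the labels. Its brighter probe changed by -0.47 (adjusted p = 0.234, limma). The dimmer probe did not exceed background in any MRL mouse, and LPR mice exceeded it at least 1.47-fold (adjusted p = 0.0338, limma).

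Acta2 was measured by 4 probes on the minus strand of chromosome 19, of which 3 were tested. The array file gives them on mm9 as A_52_P420504 (chr19:34316060-34316119), A_51_P450957 (chr19:34322995-34326249), A_52_P210078 (chr19:34315697-34315756) and A_52_P644232 (chr19:34327946-34328005). A_51_P450957 covers 3255 bases of the genome with 60 bases and so crosses an exon junction. It is shown because it crosses this junction and so reads spliced transcript. It shares no run above 13 bases with a probe of another gene. Only array probes were compared, so its match to the transcripts of other actins was not tested.
Acta2 A_51_P450957: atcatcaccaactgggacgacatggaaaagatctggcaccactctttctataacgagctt

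The brightest Acta2 probe, A_52_P420504, read 2.50, 2.76 and 2.46 in MRL 1 to 3 and 3.13, 3.25 and 3.18 in LPR 1 to 3. Every LPR mouse lay above every MRL mouse, and MRL 2 was the nearest of the controls. The log2 change was 0.61 (standard error 0.12, 95% interval 0.33 to 0.89, adjusted p = 0.0200 in limma). This call was lost without MRL 1, MRL 3 or LPR 3, with adjusted p of 0.0714, 0.0749 and 0.0664, and within slide column 1 the change was 0.55 (adjusted p = 0.165).

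The probe across the junction, A_51_P450957, read 2.13, 2.15 and 2.08 in the MRL mice and 2.78, 2.98 and 2.70 in the LPR mice. Its change was 0.70 (adjusted p = 0.00918, limma), and it kept the call without each mouse in turn. A_52_P210078 read -2.70, -2.45 and -2.72 in the MRL mice and -1.86, -1.98 and -1.70 in the LPR mice, a change of 0.78 (adjusted p = 0.0103, limma). This probe too kept the call without each mouse in turn. The 3 tested probes thus rose by 0.61 to 0.78. The latter pair also lost the call within slide column 1, with changes of 0.66 and 0.77 (adjusted p = 0.0753 and 0.0997, limma). The probe A_52_P644232 did not exceed background on any of the 6 arrays and was not tested.

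Tagln, which stabilises actin filaments, was measured by 1 probe, A_51_P450527 (mm9 chr9:45738097-45738156, minus strand). It read 3.14, 3.45 and 3.28 in the MRL mice and 3.91, 3.97 and 4.08 in the LPR mice. The groups did not overlap, and the lowest LPR mouse was farther from the highest MRL mouse than any 2 LPR mice were from each other. The change was 0.70 (standard error 0.12, 95% interval 0.42 to 0.98, adjusted p = 0.0119, limma). Without LPR 3 it was 0.65 (adjusted p = 0.0504, limma), and within slide column 1 it was 0.62 (adjusted p = 0.134, limma).

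**Figure D1:**
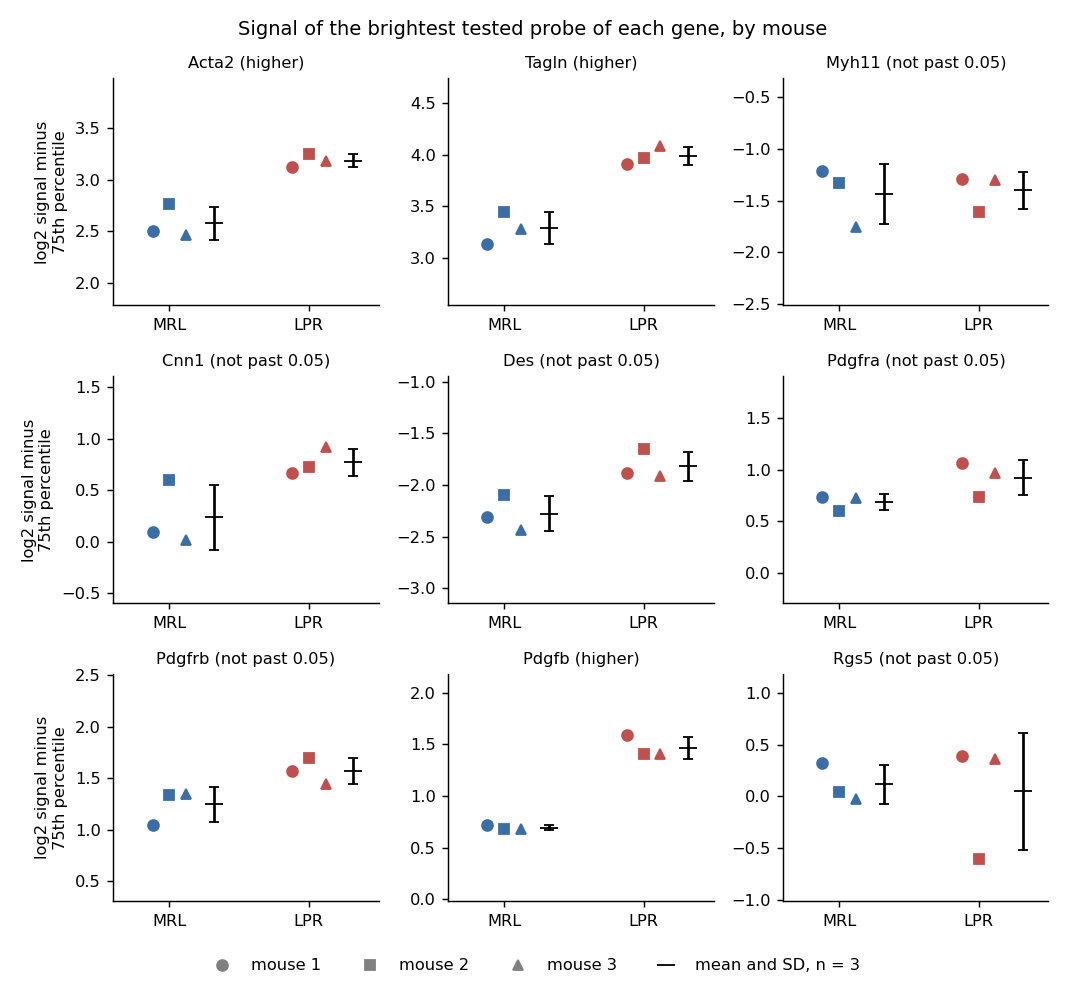
Log2 signal minus the 75th percentile of the array (y axis, with the same span but not the same level in each panel) for the brightest tested probe of each gene in the 3 MRL and 3 LPR mice, with the mean and SD of 3 mice in black. The LPR mice lie above the MRL mice in 7 panels, and overlap them for Myh11 and Rgs5.

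Myh11, the myosin heavy chain of differentiated smooth muscle, did not pass on any of 4 probes. Its brightest probe, A_51_P362429 (mm9 chr16:14195223-14198147, minus strand), read -1.21, -1.33 and -1.76 in the MRL mice and -1.29, -1.61 and -1.30 in the LPR mice. The values of the groups ran through each other, and MRL 3 was the lowest mouse. The change was 0.03 with a 95% interval of -0.38 to 0.45 (adjusted p = 0.920, limma). The other probes, A_55_P1988531, A_55_P2734582 and A_55_P2733242, changed by -0.06, -0.09 and -0.19, with adjusted p of 0.896, 0.781 and 0.313 in limma. These intervals also include rises and falls of moderate size, up to 0.57 and down to -0.70 on A_55_P1988531.

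Cnn1, the calponin of smooth muscle, read 0.10, 0.60 and 0.01 in the MRL mice and 0.67, 0.72 and 0.92 in the LPR mice on its brightest probe, A_51_P350817 (mm9 chr9:21913058-21913117, plus strand). MRL 2 came close to the LPR mice, though the groups did not overlap. The change of 0.53 (95% interval 0.11 to 0.95) did not pass (adjusted p = 0.0968, limma). It passed without MRL 2 (0.72, adjusted p = 0.0357), with normexp background correction (0.51, adjusted p = 0.0334) and with an intensity trend in limma (adjusted p = 0.0491). The dimmer probe A_55_P2744265 changed by 0.31 (adjusted p = 0.241, limma), with overlap of the groups.

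The probes of Des disagreed in sign. They are shown because they read different stretches of the locus, 1 across an exon junction of the reference transcript (A_51_P335969, mm9 chr1:75363404-75363629) and 1 for an Ensembl transcript at a place 5′ of it (A_55_P2718707, mm9 chr1:75358447-75358506), both on the plus strand.
Des A_51_P335969: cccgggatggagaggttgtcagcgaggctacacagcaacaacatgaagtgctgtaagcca
Des A_55_P2718707: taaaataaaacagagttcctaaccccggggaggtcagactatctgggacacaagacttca

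The junction probe of Des read -2.31, -2.09 and -2.43 in the MRL mice and -1.89, -1.65 and -1.91 in the LPR mice. Its groups did not overlap, and the change was 0.46 (95% interval 0.15 to 0.78, adjusted p = 0.0682, limma). With an intensity trend it passed (adjusted p = 0.0436, limma). The other probe read -4.31, -4.48 and -4.21 in the MRL mice and -4.57, -4.74 and -4.45 in the LPR mice. There 2 of the LPR mice lay below all MRL mice, and the change of -0.25 (95% interval -0.55 to 0.04) did not pass (adjusted p = 0.224, limma). Averaged over both probes the change of Des was 0.10 (adjusted p = 0.444, limma).

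**Figure D2:**
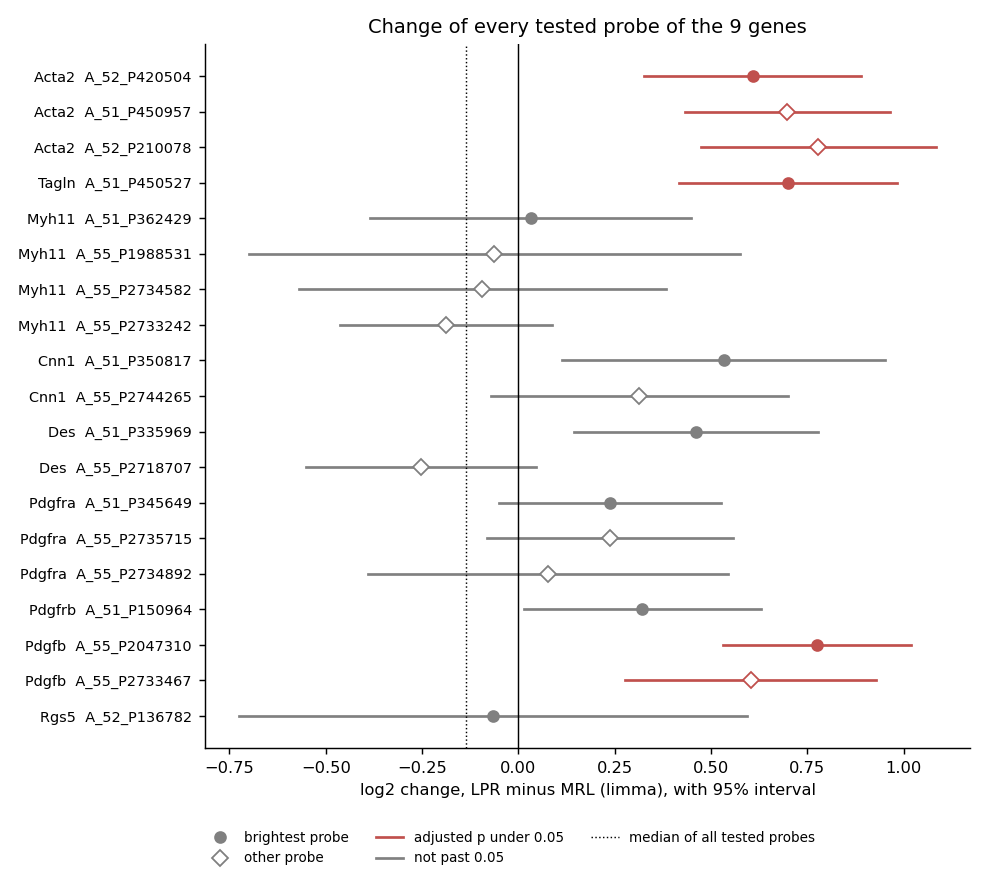
Log2 change, LPR minus MRL, of the 19 tested probes with 95% intervals from limma (x axis). Filled circles are the brightest probe of a gene, open diamonds are its other probes, red marks an adjusted p under 0.05, and the dotted line is the median of all tested probes at -0.14. The 3 Acta2 probes, Tagln and both Pdgfb probes are red, and the 4 Myh11 probes lie around 0.

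The receptors and their ligand were measured next. Pdgfra, the receptor of interstitial fibroblasts, read 0.74, 0.60 and 0.72 in the MRL mice and 1.07, 0.74 and 0.97 in the LPR mice on A_51_P345649 (mm9 chr5:75593888-75593947, plus strand). LPR 2 barely exceeded MRL 1. The change was 0.24 (95% interval -0.05 to 0.53, adjusted p = 0.235, limma), and the other probes changed by 0.24 and 0.08 (adjusted p = 0.278 and 0.822, limma).

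Pdgfrb, the receptor of pericytes and mesangial cells, was measured by A_51_P150964 on the plus strand of chromosome 18. It read 1.05, 1.34 and 1.35 in the MRL mice and 1.56, 1.69 and 1.44 in the LPR mice. The groups were separate by a small gap between MRL 3 and LPR 3. The change of 0.32 (95% interval 0.01 to 0.63) did not pass the adjustment (adjusted p = 0.151, limma) and passed under none of the alternatives.

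Pdgfb, the ligand of PDGFRB, showed the smallest spread within the control group among the 9 genes, with an SD of 0.02. Its brightest probe, A_55_P2047310 (mm9 chr15:79826376-79826435, minus strand), read 0.72, 0.68 and 0.68 in the MRL mice and 1.59, 1.41 and 1.40 in the LPR mice. The change was 0.78 (standard error 0.10, 95% interval 0.53 to 1.02, adjusted p = 0.00390, limma), and 6.68% of all tested genes had a larger rise. It was the only one of the 6 called probes that was called within slide column 1, with a change of 0.90 (adjusted p = 0.0414, limma), and the range over the 19 alternatives was 0.71 to 0.90.

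A second Pdgfb probe, A_55_P2733467 (mm9 chr15:79832821-79832880, minus strand), read -2.86, -3.26 and -2.95 in the MRL mice and -2.39, -2.54 and -2.33 in the LPR mice. The groups were apart, and the change was 0.60 (adjusted p = 0.0340, limma). The call was lost under 10 of 19 alternatives. With normexp background correction the change was 0.30 (adjusted p = 0.0521, limma), and without MRL 1, MRL 2, MRL 3, LPR 1 or LPR 3 the adjusted p was 0.0531, 0.0989, 0.0797, 0.0834 and 0.106. The sequence is shown because its capitals mark a run of 22 bases that a probe of Acox3 also holds. In all, 5 probes of other genes shared at least 16 bases with it, and no other probe of the 9 genes shared more than 15 bases with a probe of another gene.
Pdgfb A_55_P2733467: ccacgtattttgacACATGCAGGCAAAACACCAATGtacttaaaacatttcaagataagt

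Rgs5, the pericyte gene, was measured by A_52_P136782 (mm9 chr1:171623021-171623080, plus strand). It read 0.33, 0.05 and -0.02 in the MRL mice and 0.39, -0.61 and 0.36 in the LPR mice. LPR 2 was the lowest and LPR 1 the highest of all mice. The change was -0.07 with a wide 95% interval of -0.72 to 0.59 (adjusted p = 0.895, limma), and without LPR 2 it was 0.26 (adjusted p = 0.252, limma).

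The other genes were also set against Acta2 within each array, by subtracting the brightest Acta2 probe from that of each of the other 8 genes. These differences are given as a description, since the exact two-sided permutation test of 3 against 3 mice cannot go below 0.1 whatever the values. Relative to Acta2, Myh11 changed by -0.58, Rgs5 by -0.67, Pdgfrb by -0.29 and Des by -0.15, each without overlap of the groups. Tagln changed by 0.09, Pdgfb by 0.17, Cnn1 by -0.08 and Pdgfra by -0.37 relative to Acta2, with overlap. Acta2 was itself higher in LPR mice, by 0.61, so a gene without a change of its own lies lower relative to it. The share of all tested genes whose groups separate after this subtraction was not computed.

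Other genes of smooth muscle were read from lists chosen by name, also with earlier results of these data known. Of 9 tested contractile genes besides the 9 above, 3 were higher, 0 were lower and 6 did not pass, with a median change of 0.19. Synpo2, an actin-bundling protein of the Z-disc, rose by 0.77 (adjusted p = 0.00861, limma), and Actg2, the gamma actin of enteric smooth muscle, rose by 0.69 (adjusted p = 0.0177, limma). Tpm2, beta-tropomyosin, rose by 0.49 (adjusted p = 0.0361, limma). The regulatory light chain Myl9, the kinase Mylk and smoothelin (Smtn) did not pass, and neither did the brightest of 5 probes of caldesmon (Cald1), of which 1 other probe was lower. Within slide column 1 this list had 0 calls by limma. Tpm2 lost its call under 11 of 19 alternatives, among them each of the 6 that left out a mouse, and Actg2 lost it under 5, among them those without MRL 2 or MRL 3.

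Of 7 tested transcription regulators of smooth muscle, 1 was higher and 0 were lower. Mef2c, a MADS-box factor, changed by 0.46 (adjusted p = 0.0354, limma). This call was lost under 10 of 19 alternatives, which were the omission of any 1 of the 6 mice, the replicate block, the slide column as a block, slide column 1 alone and no filter on dim probes. Myocardin (Myocd), the coactivator of serum response factor, was above background in 2 of 3 MRL mice and changed by 0.82 (95% interval 0.12 to 1.52), which did not pass (adjusted p = 0.119, limma). Serum response factor (Srf) changed by 0.19 (95% interval -0.22 to 0.60, adjusted p = 0.486, limma).

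The element bound by serum response factor, the CArG box, was looked for in the RefSeq promoter windows (GRCm38.p6, 250 bases before to 50 after the start), with the letters CCNNNNNNGG and at least 5 of the 6 inner letters A or T. Both strands read alike for this motif. Of the 9 genes, 5 had a window, and Acta2 alone among them held a match. Among the 10 windows of the other contractile genes, 2 held a match, those of Myl9 (2 matches, 1 with only A or T inside) and Synm (1 match). Neither gene passed as changed. The windows of Synpo2 and Tpm2 held none, and Actg2, which was also called, had no window. A link between matches and changes was not tested. The Acta2 window held 2, which start 84 and 34 bases before the RefSeq start. One or more matches stood in 9.98% of all 32851 windows and 2 or more in 0.822%, while CArG boxes with only A or T inside stood in 1.63% and in none of the 5 windows. Cnn1, Des, Pdgfra and Rgs5 held no match in this window. Tagln, Myh11, Pdgfrb and Pdgfb had no window in the table. The Acta2 bases before the start (chr19:34255374-34255623, minus strand) are shown with the matches in capitals because no other window of the 9 genes held one.
Acta2 promoter: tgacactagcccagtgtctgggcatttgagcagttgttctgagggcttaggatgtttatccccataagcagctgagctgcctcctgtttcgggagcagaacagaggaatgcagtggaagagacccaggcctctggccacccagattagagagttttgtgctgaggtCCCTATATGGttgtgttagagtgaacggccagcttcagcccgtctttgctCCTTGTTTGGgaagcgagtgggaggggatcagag

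The genes whose profile over the 6 arrays was most like that of Acta2, by the root mean square distance between centred profiles among 25805 genes, were Parp10 (0.0503), Fbxw17 (0.0513), Fbln1 (0.0566), Tpm2 (0.0619) and Tmem98 (0.0751). Of these, Tpm2 belongs to the contractile list and Fbln1 encodes the matrix protein fibulin-1. With 6 arrays in 2 groups, a small distance mostly reflects a like difference between the groups.

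Of 12 tested pericyte and mesangial genes, 0 were higher and 0 were lower by limma, with a median change of -0.20. At an unadjusted p under 0.05, 0 were higher and 5 were lower, beside 18.9% of all tested genes that were lower by that measure, and the methods' t-test after adjustment called 0. By limma 2 were lower with normexp background correction, and 1 each with quantile normalization, with an intensity trend and with the filter on all 6 arrays. The largest change was that of Itga8, the integrin of mesangial cells, at -0.75 (95% interval -1.22 to -0.29, adjusted p = 0.0503, limma), and 1 of its 2 probes passed as lower. The markers of the renin-producing juxtaglomerular cells, which are modified smooth muscle cells, were both lower. Ren1 (renin) fell by 1.63 (adjusted p = 0.0113, limma) and Akr1b7 fell by 1.07 (adjusted p = 0.0190, limma). The methods' t-test after adjustment called 0 of the 2, and Akr1b7 also lost its call with the slide column as a block, within slide column 1 and without MRL 1, MRL 2, LPR 1 or LPR 3.

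Besides Pdgfb, none of the other 3 PDGF ligands passed by limma. Both the unadjusted tally and the methods' t-test gave 0 calls, and the largest change was that of Pdgfd at -0.18 (95% interval -0.47 to 0.11, adjusted p = 0.359, limma). Among 7 tested relatives of Rgs5 in the R4 family, 2 were higher. Rgs1, a gene of activated lymphocytes, was above background in only 1 of 3 MRL mice, so the size of its rise is not given. Rgs16 rose by 2.78. Rgs16 kept the call under each of the 19 alternatives, whereas Rgs1 was not among the probes tested with the filter on all 6 arrays.

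**Figure D3:**
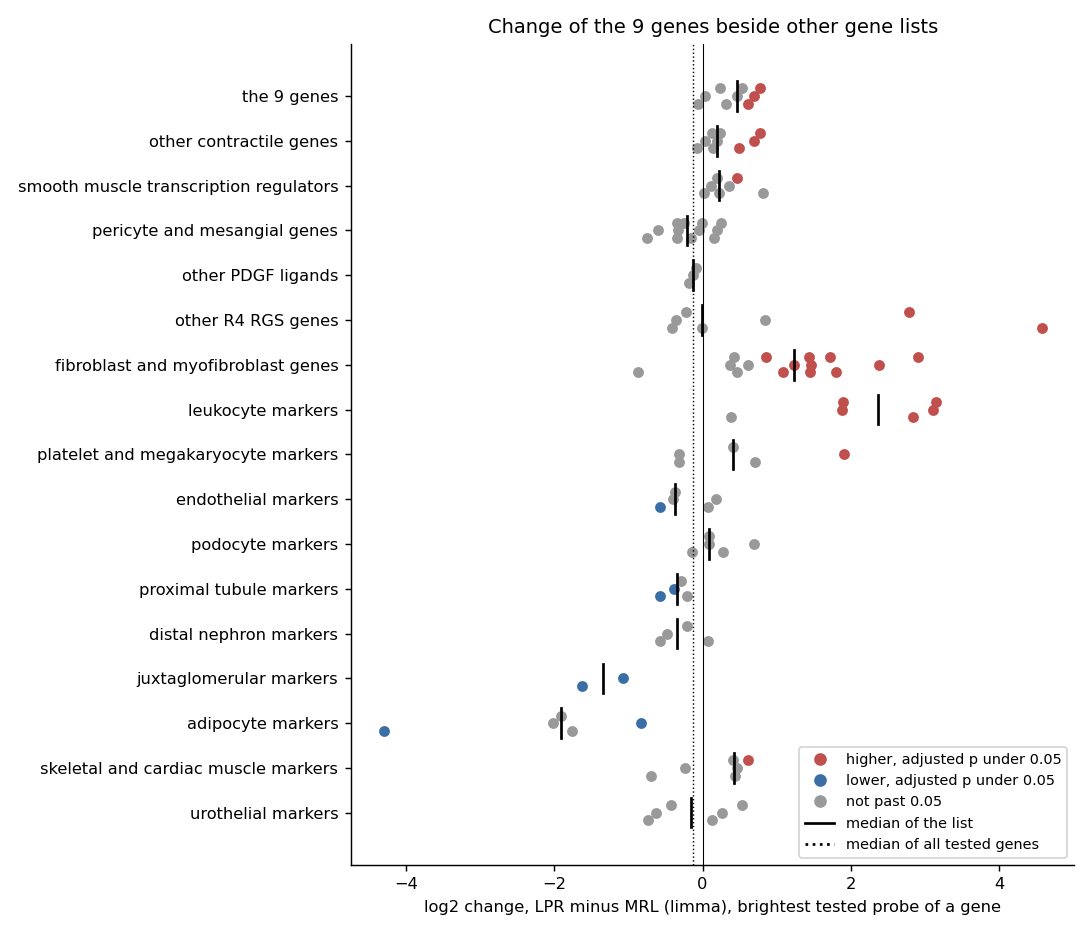
Log2 change, LPR minus MRL, of the brightest tested probe of each gene (x axis) for the 9 genes and 16 other lists, with list medians as black bars and the median of all tested genes as a dotted line. The medians of the fibroblast and leukocyte lists lie to the right of that of the 9 genes. Those of the pericyte, PDGF ligand, R4 RGS, endothelial and urothelial lists lie to the left of 0. So do those of the proximal tubule, distal nephron, juxtaglomerular and adipocyte lists, and the median of all tested genes.

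Markers of other cell types moved with the groups. Of 15 fibroblast and myofibroblast genes, 10 were higher and 0 were lower, beside 7.12% and 5.47% of all tested genes. Their median change was 1.23. Thy1, which mouse T cells also express, rose by 2.91 (adjusted p = 5.72e-05, limma), and Col1a1, the chain of type I collagen, rose by 2.37 (adjusted p = 0.000203, limma). Postn, encoding periostin, did not pass on its brightest probe (0.43, adjusted p = 0.241, limma) and passed on 1 of 3. Cthrc1, a secreted protein of collagen-producing cells, went the other way, with every LPR mouse below every MRL mouse and a change of -0.87 (95% interval -1.59 to -0.14) that did not pass (adjusted p = 0.113, limma), and with normexp background correction 1 gene of the list was lower. The mean signal of the list, on the log2 scale, was 1.31 to 1.57 in MRL mice and 2.48 to 2.49 in LPR mice. Within slide column 1, 5 of the 15 genes were called.

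Of 6 leukocyte markers, 5 were higher, led by Lyz2 (lysozyme), with a change of 3.15, and the macrophage gene Cd68, and the list had a mean signal of 0.96 to 1.60 in MRL mice and of 3.94 to 4.08 in LPR mice. Platelets are a source of PDGF-B, and 1 of 5 platelet markers, the chemokine Pf4, was higher, by 1.91 (adjusted p = 0.00295, limma), while Itga2b, the platelet integrin, changed by -0.31 (adjusted p = 0.131, limma). Endothelial cells are another, and of their 5 markers Kdr, a receptor for VEGF, fell by 0.57 (adjusted p = 0.0317, limma) and the other 4 did not pass. Kdr lost its call under 10 of 19 alternatives, among them the slide column as a block and the omission of any 1 mouse but LPR 2. The part of these cell types in the change of Acta2, Tagln and Pdgfb was not tested.

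Tissue carried along with the kidney, and further cell types of the kidney itself, were read in the same way. Of 6 tested skeletal and cardiac muscle markers, 1 was higher, the skeletal actin Acta1 (0.61, adjusted p = 0.0318, limma), and the muscle genes Ckm and Mb were above background on no array. Acta1 lost its call under 10 of 19 alternatives, among them the slide column as a block and the omission of MRL 1, MRL 3, LPR 1 or LPR 3. Of 5 adipocyte markers 2 were lower by limma, Ucp1 and Fabp4. Ucp1 read -3.40, -2.13 and -1.47 in the MRL mice and -4.40, -7.34 and -8.15 in the LPR mice (adjusted p = 0.0331, limma), but it was above background in only 1 of 3 LPR mice, so the size of its fall is not given. Fabp4 fell by 0.83. Neither was called by the methods' t-test, with the replicate block, with the slide column as a block, within slide column 1 or without MRL 2. The list had a mean signal of 1.88 to 2.19 in MRL mice and 0.79 to 1.44 in LPR mice. None of 6 urothelial, 5 podocyte or 4 distal nephron markers passed by limma, and 0 passed by the methods' t-test after adjustment. In limma at an unadjusted p under 0.05, 2 urothelial and 2 distal nephron markers were lower, beside 18.9% of all tested genes. At that threshold 1 podocyte marker was higher, beside 10.5%. The largest changes in these lists were those of Upk2 (-0.74, adjusted p = 0.0978), Nphs1 (0.69, adjusted p = 0.0780) and Slc12a1 (-0.57, adjusted p = 0.0665). Among 4 proximal tubule markers, Slc5a2 fell by 0.57 (adjusted p = 0.0270, limma) and Lrp2 fell by 0.39 (adjusted p = 0.0492, limma). Lrp2 lost its call under 14 of 19 alternatives and Slc5a2 under 8, both of them with the slide column as a block. Whether carried-along tissue or these kidney cell types had a part in the values of the contractile genes was not tested.

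**Figure D4:**
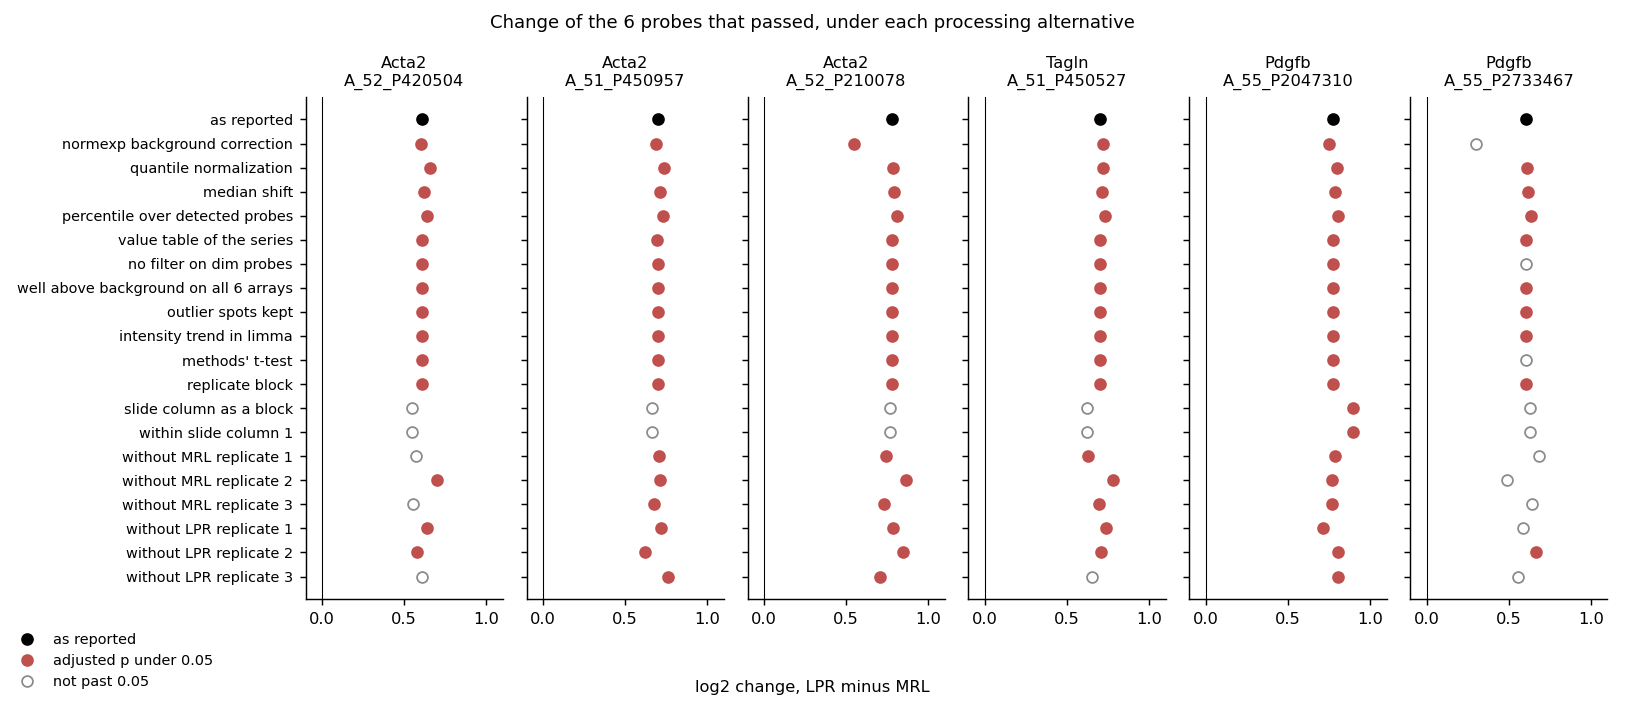
Log2 change, LPR minus MRL (x axis), of the 6 called probes under each processing alternative (y axis), with red for an adjusted p under 0.05 and open circles for probes that did not pass. All values lie above 0. The brightest Pdgfb probe is red throughout, and the 3 Acta2 probes and Tagln are open when the slide column is used.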

How the data were processed

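TA was performed on whole kidneys of 3 MRL and 3 LPR female mice at 6 months of age with the SurePrint G3 Mouse 8x60K array, 1 array per mouse. Per the file headers, the deposited intensity is the background-subtracted signal of Agilent Feature Extraction 12.0.3.1, placed on mm9. The authors also deposited a ratio of this signal to the array's 75th percentile, used as an alternative. The paper names Trizol for the RNA, and the labels name the RNeasy Mini Kit.

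Control spots and outlier spots were left out, log2 signals were reduced by the 75th percentile of each array, and replicate spots were averaged. Testing was limited to probes well above background on at least 3 of 6 arrays. LPR and MRL were compared by limma (version 3.58.1, R 4.3.3), and p-values were adjusted by Benjamini-Hochberg over 39924 probes, with a threshold of 0.05. The 9 genes and the lists were chosen with earlier results of these data known. Named were all probes of the 9 genes, Fas, the genes with up to 2 largest called rises and falls of each list or its largest change where none was called, and the 5 genes most like Acta2. Tpm2, Myocd, Srf, Synm, Cthrc1, Postn, Itga2b, Smtn, Mylk, Myl9, Cald1, Ckm and Mb were named after their values were seen, as was the comparison within arrays. All 16 RefSeq accessions of the probes matched the same symbol in the current gene table. Replicates are separate mice. Their number limits the precision.

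Alternatives were normexp correction (offset 50), scaling by quantiles, by the median or by the percentile of detected probes, the deposited ratio, no filter or a filter on all 6 arrays, outlier spots kept, an intensity trend, the methods' t-test (without the fold selection that the methods made first), a block for the slide column or the replicate number, gene means over probes, and leaving out 1 mouse. In a simulation of the comparison with 39924 probes, limma recovered 44 of 100 probes changed 2-fold and 87 of 100 changed 4-fold, with 12 false calls and 0 of the wrong sign. Plots were made in matplotlib 3.10.9 (python 3.11.15).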

Additional observations from a re-analysis of the deposited data

How the results depend on the processing

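Among the 9 genes, 3 were higher in the values as reported, and among their 19 probes 6 were. With an intensity trend in limma 5 genes were higher, and with the slide column as a block or within slide column 1 only 1 gene and 1 probe were, both times Pdgfb. Over all tested probes the slide column moved the calls from 2606 higher and 2462 lower to 1458 and 463, and within column 1 to 1116 and 315. With 1 mouse left out, 1 to 4 genes and 3 to 6 probes were higher, with the lowest counts without LPR 3. Under all alternatives run, 0 genes and 0 probes were lower. The methods' t-test, run without the selection on fold that preceded it in the methods, called 4 genes and 7 probes higher at an unadjusted p under 0.05, and 3 and 5 after adjustment.

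The replicate numbers are shared by the groups. Deviations of same-numbered mice correlated at 0.115, 0.0203 and 0.00516, so the numbers were not taken as a pairing. The replicate block left 3 genes and 6 probes higher, and took the calls over all probes to 2199 higher and 1117 lower.

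Signs turned only on probes that did not pass. On A_51_P362429 of Myh11 the change was -0.13 to 0.14 with 1 mouse left out. On A_55_P1988531 it was 0.38 with the slide column and within column 1, and -0.29 to 0.17 with a mouse left out. On A_55_P2734582 these were 0.14 and -0.25 to 0.074. The Pdgfra probe A_55_P2734892 gave -0.077 with normexp, -0.21 with the slide column and within column 1, and -0.11 to 0.22 with a mouse left out. Rgs5 gave 0.28 with the slide column and within column 1, and -0.24 to 0.26 with a mouse left out. The cause was not tested. With 3 mice per group, the 95% interval of a brightest probe was narrowest for Pdgfb (0.53 to 1.02) and widest for Rgs5 (-0.72 to 0.59), so the number of arrays limits what can be said of smaller changes.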
